A study of Cicer arietinum with 8 samples.

Results

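The shoot of a chickpea seedling laid out to dry was compared with the shoot of a seedling kept in water. The comparison set 1 shoot desiccation library against 1 shoot control library, out of 8 libraries in all. Its members were the annotated gene models (rows carrying a Ca_ identifier rather than a bare locus number) that reached at least 1 FPKM in either library. FPKM counts sequenced fragments per kilobase of a gene's exons, relative to the total mapped from that library. Of 27248 annotated gene models, 16040 (58.9%) met this rule, and 11208 did not, of which 8594 were listed at 0 in both libraries and 2614 stood above 0 but under 1 FPKM. At the edge of the rule, the nearest member inside had 0.616 FPKM in shoot desiccation and 1.00003 FPKM in shoot control, and the nearest one outside had 0.99958 and 0.434 FPKM in that order.

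All seedlings were of the genotype ICC4958, a chickpea (Cicer arietinum) line, and were 10 days old. Treatment lasted 5 h: desiccated seedlings were placed on folded tissue paper, and control seedlings stayed in water. The remaining libraries, shoot salinity (150 mM NaCl), shoot cold (water at 4 °C), and root desiccation, root salinity, root cold and root control, serve here to show the members' levels elsewhere, to define organ-restricted and organ-preferred gene models, and, in root, for separate comparisons with root control. No group has a replicate, so every difference is a difference between 2 libraries, carries no p-value and cannot be set against biological spread. In a bulk tissue library, fewer cells of a type and less RNA per cell cannot be told apart.

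When a shoot loses water, its cells lose turgor, and the hormone abscisic acid accumulates. Abscisic acid closes stomata and switches on genes through bZIP transcription factors, while other regulators such as the DREB family act without it. Genes known for this response in plants encode dehydrins and other late embryogenesis abundant proteins, enzymes that make compatible solutes, and protein phosphatases that damp the hormone signal; genes for growth and photosynthesis are often lowered. The files give no names or products for their identifiers, and 0 of them were found in the chickpea gene table used for names, so no gene model below is assigned to any of these groups.

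The shoot identity of both libraries was checked with gene models restricted by the other 6 libraries. The 9 gene models that reached 100 FPKM in each of the 4 root libraries and were under 1 FPKM in shoot salinity and shoot cold summed to 1.23 FPKM in shoot desiccation and 1.03 FPKM in shoot control, against 2705 to 6869 FPKM in the root libraries. All 9 were under 1 FPKM in both shoot libraries, and the highest stood at 0.389 FPKM in shoot desiccation and 0.410 FPKM in shoot control. The 28 gene models with the opposite restriction summed to 13413 FPKM in shoot desiccation and 18744 FPKM in shoot control, and each was above 50 FPKM in both. Among loci under 0.3 FPKM, where single fragments make visible steps, the depth of shoot desiccation was 0.958 times that of shoot control. Annotated gene models held 21.3% of the summed FPKM in shoot desiccation and 23.8% in shoot control, and unannotated loci held the rest. The most abundant unannotated locus alone stood at 486024 FPKM in shoot desiccation and 155475 FPKM in shoot control.

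Most gene models differed little between the desiccated and the control shoot. The median log2 change was -0.04, with quartiles at -0.52 and 0.43, where the change is log2(FPKM + 1) in shoot desiccation minus the same in shoot control. A change within 0.5 of 0 was found at 8326 gene models (51.9%). The change spanned -4.41 to 7.51, and 90% of the gene models lay between -1.33 and 1.41.

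At least 2-fold differences (a log2 change of 1 or more in size) were found at 3089 gene models, 19.3% of those considered. Of these, 1479 were higher (9.22% of those considered) and 1610 were lower (10.0%) in the desiccated shoot. Close to the 2-fold line the gene models were dense: 207 higher and 284 lower ones lay between 1 and 1.1 in size, and a further 247 higher and 338 lower ones lay between 0.9 and 1. Near-equal numbers at 2-fold gave way to an excess of higher gene models as the size grew. At 3-fold 622 were higher (3.88%) and 454 lower (2.83%), at 4-fold 351 (2.19%) and 192 (1.2%), and at 8-fold 120 (0.748%) and 20 (0.125%). At 16-fold 42 were higher (0.262%) and 3 lower (0.0187%), and at 32-fold 17 were higher (0.106%) and 0 lower.

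An 8-fold increase needs at least 7 FPKM in shoot desiccation, and an 8-fold decrease needs as much in shoot control. That level was reached by 10943 gene models in shoot desiccation and 11126 in shoot control. For a 16-fold difference the level needed is 15 FPKM, reached by 7377 gene models in shoot desiccation and 7347 in shoot control. The counts varied with the pseudocount, the constant added to FPKM. With 0.1 the 8-fold counts were 227 higher and 96 lower, and with 5 they were 54 and 4. What the excess of large increases owes to the scale was not tested. The balance of directions depended on scaling at the smaller sizes. Annotated gene models were set to the same sum in both libraries, a log2 shift of -0.12 before the pseudocount. The pseudocount was added after this rescaling, so the change did not move by the same amount at every gene model. On that scale 38.4% of the 2-fold differences and 53.5% of the 4-fold differences were higher, in place of 47.9% and 64.6%. At 8-fold the counts were then 122 higher and 38 lower.

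**Figure D1:**
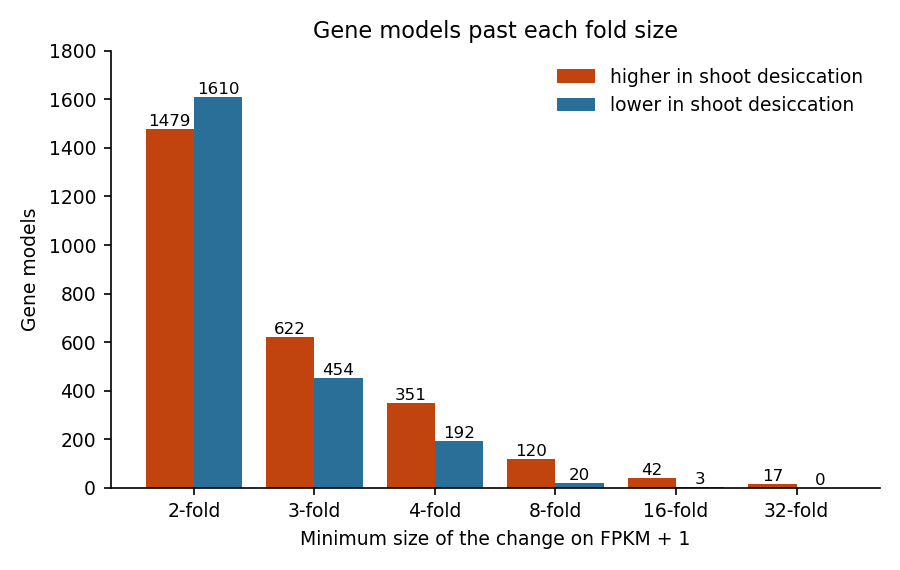
Number of gene models (vertical axis) past each minimum fold on FPKM + 1 (horizontal axis), higher or lower in the shoot desiccation library than in the shoot control library. Lower gene models outnumber higher ones at 2-fold (1610 and 1479), and from 3-fold on the higher ones outnumber the lower.

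The gene model with the largest increase was Ca_13297, at 451 FPKM in shoot desiccation and 1.48 FPKM in shoot control, a log2 change of 7.51. By level it ranked 164 of the gene models considered in the desiccated shoot and 15067 in the control shoot. Its level was 275 FPKM in shoot salinity and 11.95 FPKM in shoot cold. In root it stood at 244 FPKM under desiccation, 126 under salinity, 36.1 under cold and 2.55 in the control. Its level was thus low in both control libraries and above 10 FPKM in all 6 stressed ones.

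Ca_03148 had the next largest increase, at 280 FPKM in shoot desiccation and 1.21 FPKM in shoot control, a log2 change of 6.99. It stood at 29.5 FPKM in shoot salinity and 4.52 FPKM in shoot cold. In root it was listed at 0 under desiccation, under cold and in the control, and stood at 0.153 FPKM under salinity. Its high level was therefore seen in shoot libraries only, with desiccation far above the others, whereas Ca_13297 stood high in both organs.

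The largest decrease was that of Ca_08352, a very abundant gene model of the control shoot. It stood at 47.0 FPKM in shoot desiccation and 1017 FPKM in shoot control, a log2 change of -4.41, and its rank by level was 2555 in the desiccated shoot and 65 in the control shoot. In shoot salinity it stood at 459 FPKM and in shoot cold at 1505 FPKM. Root levels were 146 FPKM under desiccation, 40.1 under salinity, 99.7 under cold and 104 in the control. In shoot its lowest level was under desiccation, while in root the desiccation library held its highest.

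Ca_04877 stood at 0.522 FPKM in shoot desiccation and 24.8 FPKM in shoot control, a log2 change of -4.08. It stood at 1.45 FPKM in shoot salinity and 16.3 FPKM in shoot cold. Its root levels were 3.73 FPKM with desiccation, 0.401 FPKM with salinity and 2.92 FPKM with cold, and it was listed at 0 in root control. In shoot the desiccation library was thus below its control. In root, since a listed 0 may stand for an estimate that failed, no fold is given against it.

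**Figure D2:**
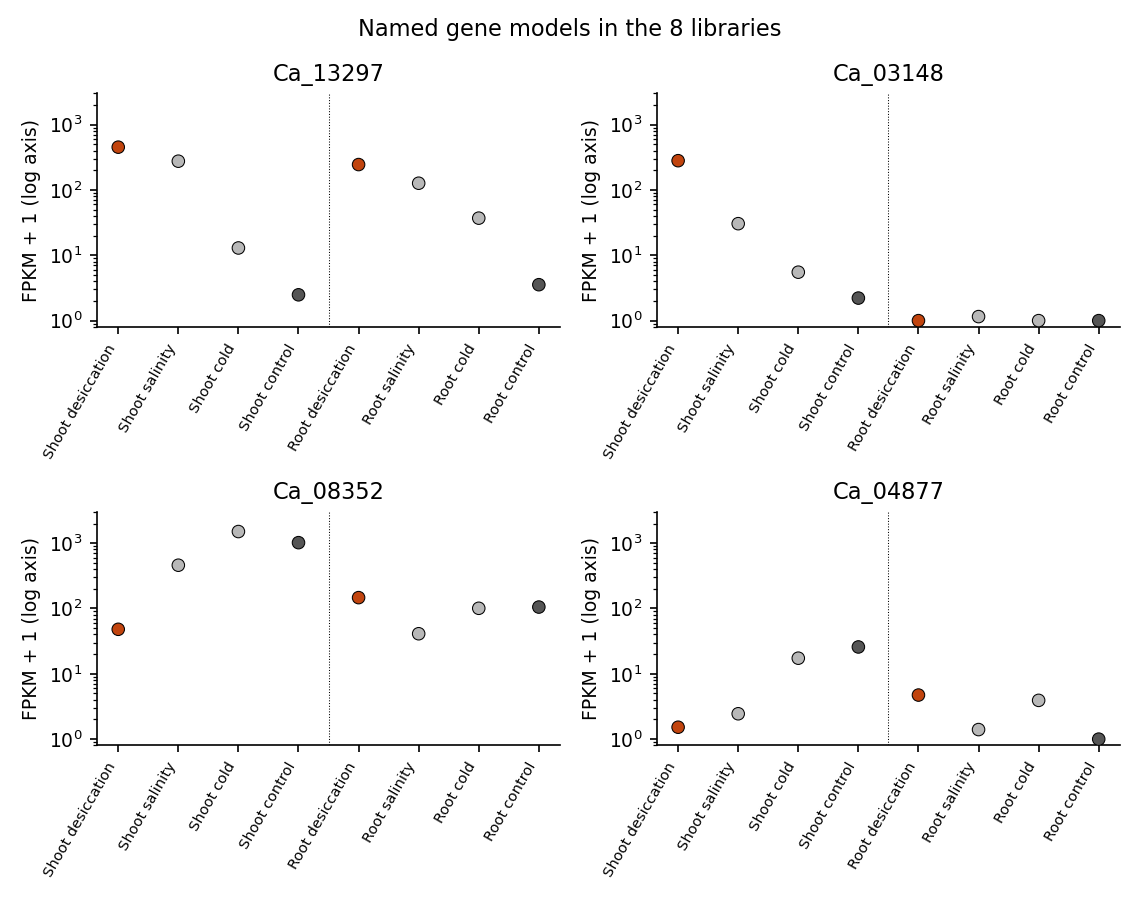
FPKM + 1 on a log axis for Ca_13297, Ca_03148, Ca_08352 and Ca_04877 in each of the 8 libraries, 1 point per library, shoot left and root right of the dotted line. Ca_13297 is high in desiccated shoot and root (451 and 244 FPKM), whereas Ca_03148 is high in shoot alone (280 FPKM in desiccated shoot).

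The next 10 increases had log2 changes of 5.40 to 6.46. Their levels ran from 48.3 to 1744 FPKM in shoot desiccation (median 280) and from 0.0999 to 25.7 FPKM in shoot control (median 3.79). In root their medians were 8.92 FPKM under desiccation and 0.979 FPKM in the control, against 12.6 and 12.2 FPKM over all gene models considered. The next 10 decreases had log2 changes of -4.08 to -3.22. Their levels ran from 0.156 to 8.87 FPKM in shoot desiccation (median 1.29) and from 12.6 to 113 FPKM in shoot control (median 27.6). These 10 decreasing gene models had root medians of 13.3 FPKM under desiccation, close to that over all, and 30.2 FPKM in the control.

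Few gene models went between absence and clear expression. Under 1 FPKM in shoot control and at least 5 FPKM in shoot desiccation were 61 gene models, 3 of them listed at 0 in the control. The opposite, under 1 FPKM in shoot desiccation and at least 5 FPKM in shoot control, was found for 43, of which 1 was listed at 0 in the desiccated shoot. With a level of at least 10 FPKM the numbers were 19 and 8, and with at least 20 FPKM they were 6 and 1. The highest level reached was 48.3 FPKM in shoot desiccation and 24.8 FPKM in shoot control. Of the 120 gene models at least 8-fold higher, 17 were under 1 FPKM in shoot control. Among all 16040 gene models considered, 434 were, a smaller share. The 120 were chosen for standing far above shoot control, which by itself favours low levels there. The difference in share is therefore a description only.

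The 61 gene models under 1 FPKM in the control shoot and at 5 FPKM or more in the desiccated shoot had median levels of 7.31 FPKM in shoot desiccation, 4.25 in shoot salinity, 1.07 in shoot cold and 0.484 in shoot control. In the root libraries 18 of the 61 were under 1 FPKM throughout and 21 were at least 1 FPKM throughout. The 43 with the opposite pattern had medians of 0.719 FPKM in shoot desiccation, 2.55 in shoot salinity, 6.32 in shoot cold and 7.24 in shoot control. Of these 43, 28 were at least 1 FPKM in every root library and 8 were under 1 FPKM in all of them. Among all 16040 gene models considered, between 1303 (root salinity) and 1439 (root cold) were under 1 FPKM in a given root library. They were not counted over the root libraries together, so the root numbers of the 61 and the 43 are a description only.

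**Figure D3:**
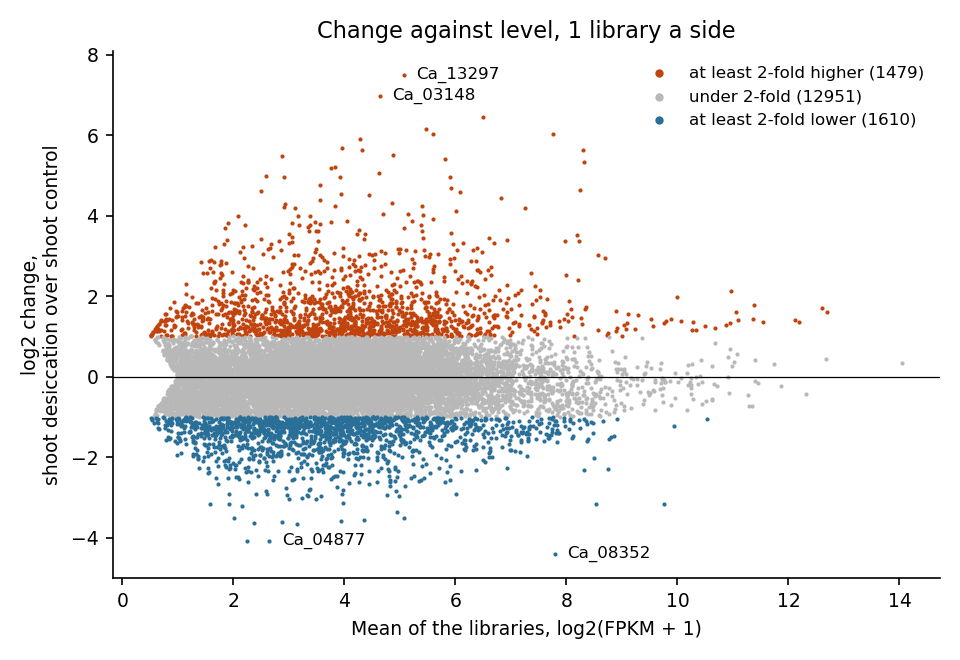
Log2 change of each gene model (vertical axis, shoot desiccation over shoot control on FPKM + 1) against its mean level in the 2 libraries (horizontal axis, log2 of FPKM + 1), 1 point per gene model. Increases reach 7.51 and decreases -4.41, and at the highest levels more points are at least 2-fold higher than at least 2-fold lower.

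The direction of change varied with abundance. Among 1382 gene models with a mean of up to 2 FPKM over the 2 libraries, 95 were at least 2-fold higher (6.87%) and 106 lower (7.67%). Between 2 and 5 FPKM, 182 of 2177 were higher and 264 lower, and between 5 and 20 FPKM, 490 of 6450 were higher and 652 lower. From 20 to 100 FPKM the order turned, with 545 of 4984 higher and 453 lower, and between 100 and 500 FPKM the numbers were almost equal, 125 and 126 of 896. Above 500 FPKM 42 of 151 were higher (27.8%) and 9 were lower (5.96%), against 9.22% and 10.0% over all gene models considered. The median change of that most abundant class was still -0.01. Under quantile normalization it held 31 higher and 14 lower gene models, and with equal sums, where more gene models pass 500, it held 48 and 29.

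The 42 abundant gene models that were higher under desiccation summed to 110266 FPKM in shoot desiccation and 36036 FPKM in shoot control, a direction set by their selection. Their sums were 45859 FPKM in shoot salinity and 41537 FPKM in shoot cold. Their log2 changes ran from 1.01 to 6.03 with a median of 1.41, and 33 of the 42 were under 4-fold, as were 1128 of all 1479 higher gene models. They were abundant in root too, with median levels of 617 FPKM in root desiccation and 770 FPKM in root control, and 29 of 42 reached 500 FPKM in root control. The 100 equally abundant gene models that differed by less than 2-fold had medians of 840 FPKM in shoot desiccation and 962 FPKM in shoot control, and of 11.9 FPKM in root desiccation and 20.6 FPKM in root control. In the root comparison of desiccation with control, 6 of the 42 were at least 2-fold higher and 2 lower, where 7.49% and 6.0% of all gene models considered were. Of those 100, 18 reached 500 FPKM in root control. These sums moved together with the unannotated loci, whose share was 78.7% in shoot desiccation and 76.2% in shoot control, and the part of that shift in the result was not tested.

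The share of the most abundant gene models was compared next. The 10 most abundant gene models of each library held 11.6% of the annotated FPKM in shoot desiccation and 7.77% in shoot control, and the 100 most abundant held 31.6% and 25.6% in that order. In shoot salinity and shoot cold the 10 most abundant held 8.52% and 8.54%. In root the order was the opposite, with 8.79% in root desiccation and 12.5% in root control, the highest share of the 8 libraries. The 1479 higher gene models made up 27.4% of the annotated sum in shoot desiccation and 9.14% in shoot control. The 1610 lower ones made up 4.401% in shoot desiccation and 13.7% in shoot control. Both sets were chosen by this comparison, which by itself sets the direction of these differences in share.

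Organ preference was taken from the 6 libraries outside the comparison, all of them stressed except root control. A gene model was called root-preferred when the mean of the 4 root libraries was at least 4-fold above the mean of shoot salinity and shoot cold on the same scale and at least 5 FPKM, and shoot-preferred in the opposite case. Of 1420 root-preferred gene models, 948 passed the expression rule in shoot, and 199 of them (21.0%) were at least 2-fold higher in the desiccated shoot, against 9.22% of all considered. Lower were 78 (8.23%), against 10.0%. All 1332 shoot-preferred gene models passed the rule, and here 208 were lower (15.6%) and 120 higher (9.01%). The median log2 change was 0.18 for root-preferred and -0.27 for shoot-preferred gene models, against -0.04 over all. The root-preferred class rests on stressed root libraries as well as on root control. Its median was 48.3 FPKM in root desiccation, 51.2 in root salinity and 42.5 in root cold, against 32.7 in root control. A gene model raised by stress in both organs can enter it for that reason, so this class is not independent of the shoot increases.

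Large increases were counted in the same classes. At least 8-fold higher were 40 of 1332 shoot-preferred gene models (3.003%) and 14 of 948 root-preferred ones (1.48%), against 0.748% of all considered. At least 4-fold higher were 64 of the shoot-preferred (4.80%) and 48 of the root-preferred gene models (5.06%), against 2.19%. The shoot-preferred class was set partly by shoot salinity, where the 120 gene models at least 8-fold higher under desiccation had a median of 37.2 FPKM, against 3.32 FPKM in shoot control. A gene model raised by both stresses can enter the class for that reason, so the class is not independent of these increases. The root-preferred gene models remained weakly expressed in shoot, with medians of 4.86 FPKM in shoot desiccation and 4.02 FPKM in shoot control, while their root medians ran from 32.7 to 51.2 FPKM. As given above, the 9 gene models restricted most strictly to root stayed under 1 FPKM in the desiccated shoot. When preference was set at 8-fold, 74 of 383 root-preferred gene models were higher (19.3%) and 32 lower (8.36%), and 58 of 744 shoot-preferred ones were higher (7.80%) and 113 lower (15.2%).

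**Figure D4:**
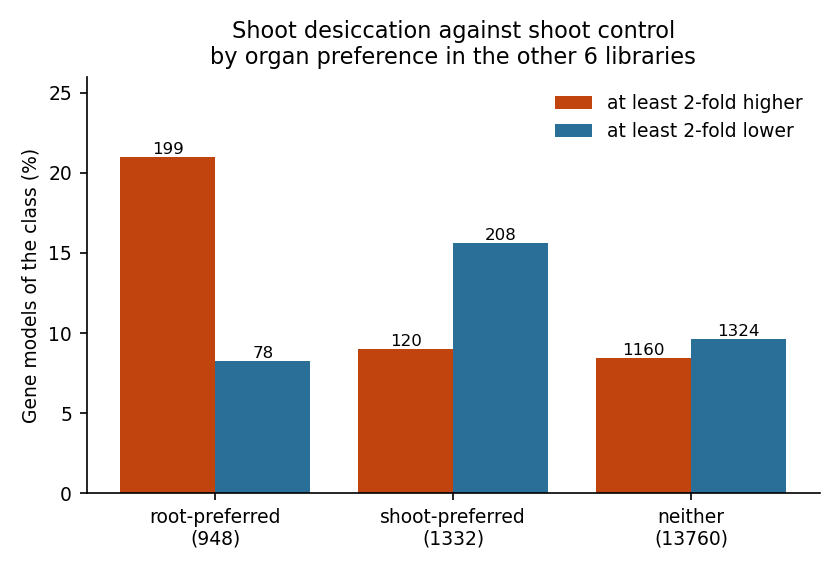
Percent of gene models at least 2-fold higher or lower in shoot desiccation than in shoot control (vertical axis), by organ preference in the other 6 libraries (horizontal axis, number considered in brackets); numbers on bars are gene models. Of the root-preferred gene models 21.0% are higher, and of the shoot-preferred ones 15.6% are lower. Both classes rest on stressed libraries and are not independent of responses to stress.

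The levels of the changed gene models in the other libraries were set beside those that chose them. The 351 gene models at least 4-fold higher had a median of 43.1 FPKM in shoot desiccation, 25.9 in shoot salinity, 8.72 in shoot cold and 5.35 in shoot control. The 192 at least 4-fold lower had a median of 4.05 FPKM in shoot desiccation, 13.5 in shoot salinity, 25.1 in shoot cold and 25.8 in shoot control. Both sets were picked as extremes of desiccation against control, which by itself favours intermediate levels in the other libraries without fixing them. In the lower set the upper quartile was 62.8 FPKM in shoot cold and 59.1 FPKM in shoot control. The shoot comparisons also share the control library, so these levels are a description, and no overlap between the comparisons is given. The 17 gene models at least 32-fold higher had a median of 280 FPKM in shoot desiccation, 156 in shoot salinity, 12.3 in shoot cold and 3.27 in shoot control.

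**Figure D5:**
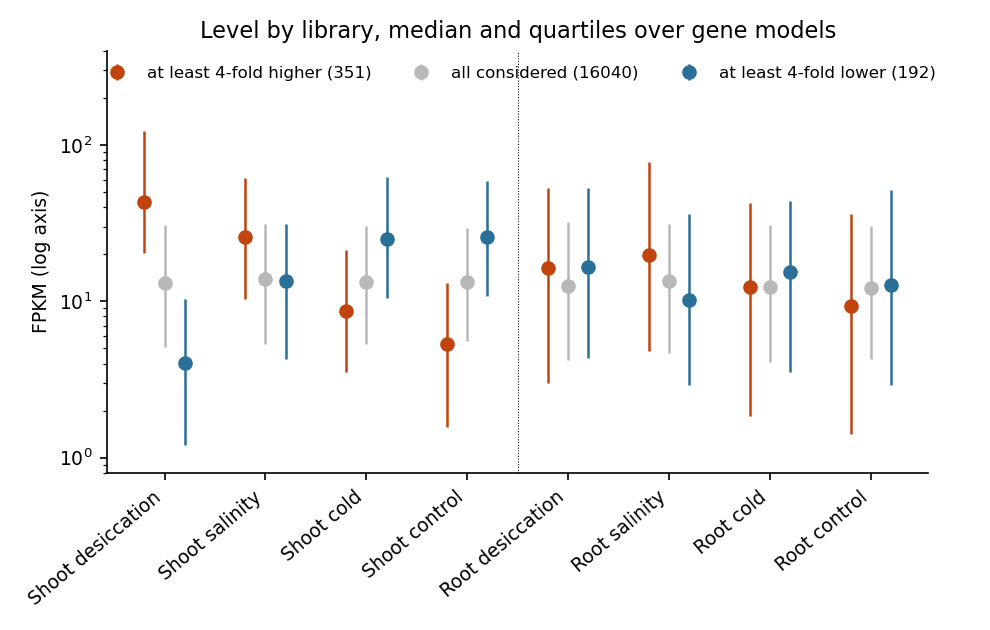
Median FPKM (points, log axis) with quartiles (lines) over the gene models at least 4-fold higher, at least 4-fold lower, and all considered, in each library. In shoot the higher set has a median of 43.1 FPKM under desiccation and 5.35 FPKM in the control, while in root its medians lie between 9.28 and 19.9 FPKM.

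Root libraries share none with the shoot comparison, so the members' behaviour there is a separate measurement. Of the 1479 gene models higher in the desiccated shoot, 233 (15.8%) were also at least 2-fold higher in root desiccation than in root control, where 7.49% of all gene models considered were. Another 140 (9.47%) were lower in root desiccation, against a background of 6.0%. By the size of the shoot increase, the share also higher in root desiccation was 143 of 1128 (12.7%) between 2- and 4-fold, 55 of 231 (23.8%) between 4- and 8-fold and 15 of 78 (19.2%) between 8- and 16-fold. It was 10 of 25 between 16- and 32-fold and 10 of 17 at 32-fold or more, so the share was highest at the largest increases without growing at every step. None (0) of those 17 was at least 2-fold lower in desiccated root. The root shares here and below include gene models listed at 0 in root control, where a change rests on the constant added. Of the 17, 4 were listed at 0 there, against 222 of all 16040 considered. How many of these 4 are among the 10 was not counted.

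Gene models lower in the desiccated shoot showed another pattern. Of the 1610, 133 (8.26%) were lower in root desiccation, against 6.0%, and 216 (13.4%) were higher there, against 7.49%. Both shares lay above the background, and opposite directions outnumbered the same direction. Of the 17 gene models between 8- and 16-fold lower in the desiccated shoot, 9 were at least 2-fold lower and 1 was higher in root desiccation. Of the 3 with the largest decreases, at least 16-fold, 0 were lower and 1 was higher there. That 1 is Ca_04877, listed at 0 in root control, so its increase in root rests on the constant added and is uncertain.

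Root salinity and root cold were set beside this in the same way, and all root comparisons share the root control. In root salinity 439 of the 1479 shoot increases were higher (29.7%), against 13.0%, and 124 were lower (8.38%), against 10.1%. Of the 1610 shoot decreases 278 were lower in root salinity (17.3%), against 10.1%, and 135 were higher (8.39%), against 13.0%. In both directions, then, the same-direction share lay above the background and the opposite share under it. In root cold the shoot increases were split, 186 higher (12.6%, against 6.9%) and 185 lower (12.5%, against 6.88%). Of the shoot decreases 172 were higher in root cold (10.7%, against 6.9%) and 138 were lower (8.57%, against 6.88%). The difference between the root comparisons was not tested.

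Rows that carry several identifiers, or an identifier found on more than 1 row, can split or merge reads. They made up 692 of the 16040 gene models considered, 56 of the 1479 higher ones, 57 of the 1610 lower ones, and 1 of the 17 that were at least 32-fold higher. Each of the 4 named gene models has 1 identifier on 1 row.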

How the data were processed

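Messenger RNA libraries were sequenced on an Illumina platform, 1 for each of 4 treatments in root and shoot. The values deposited by the authors are FPKM. According to the design text, NGS QC Toolkit served to filter the reads, TopHat to align them to the chickpea genome and Cufflinks to estimate FPKM. Tool versions and the genome build: not given in the sources used here. Because each value is relative to its library's mapped fragments, very abundant loci lower all others. Total read numbers are unknown.

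Groups were taken from sample titles. Changes are differences of log2(FPKM + 1), which understates changes of weakly expressed gene models. Gene models under 1 FPKM in both libraries were left out. With 1 library per group no test was run. The members, classes and rules were chosen with earlier results of these data known. Named are the 2 largest rises and 2 largest falls among the 12542 gene models with 1 identifier on 1 row and at least 5 FPKM in either library; the next 10 are given as ranges. Planned gene lists by product were not used, because no identifier (0) matched the RefSeq gene table. Relative depth was read from the commonest ratio of values between the 2 libraries at 934 loci above 0 and under 0.3 FPKM in both; 208 lay within 0.02 (log2) of it. Counting was tested on simulated data. Tables were made with pandas 2.3.3 and numpy 2.4.6 under Python 3.11.15, intervals with scipy 1.17.1, and plots with matplotlib 3.10.9. Alternatives were other pseudocounts, minimums, scalings, thresholds and sets of rows.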

Additional observations from a re-analysis of the deposited data

How the results depend on the processing

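No paired analysis was possible because each group has 1 library and the comparison has no test; for the same reason no library could be left out. A pseudocount of 5 gave 909 higher and 792 lower gene models at 2-fold (53.4% higher), and 193 and 58 at 4-fold. A pseudocount of 0.1 gave 45.0% higher at 2-fold, and 558 higher and 408 lower at 4-fold. A 3-fold threshold gave 622 and 454 (57.8% higher). The share higher was 50.03% after median-ratio rescaling and 50.1% over all loci, unannotated ones included, so the small excess of lower gene models at 2-fold turned with these settings. Equal sums of annotated gene models gave 38.4% higher, 295 lower at 4-fold and a median log2 change of -0.16. Root-preferred gene models numbered 94 higher and 35 lower with a pseudocount of 5, and 131 lower with 0.1; with preference at 8-fold they were 74 and 32, and shoot-preferred ones 58 and 113. Of the gene models higher in shoot, 369 (pseudocount 0.1) and 125 (pseudocount 5) were higher in root desiccation, and 63 (pseudocount 5) were lower; of those lower in shoot, 405 and 58 were higher and 231 and 51 were lower, in the order 0.1 and 5. The cause was not tested, apart from thresholds and classes that take in fewer gene models by construction. The excess of higher gene models at 8-fold held with a pseudocount of 0.1 (227 higher, 96 lower) and of 5 (54 and 4). Of 194 recomputed values, 4 turned direction, namely the share higher at 2-fold under 3 settings and the share at 3-fold. Depth in reads is unknown, which limits every value near 1 FPKM.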
